A study of Mus musculus with 3 samples.

Results

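The receptor tyrosine kinase gene Ret and the 4 genes of its GFR-alpha co-receptors, Gfra1, Gfra2, Gfra3 and Gfra4, were examined in cells of the mouse ureteric bud. The members were taken by gene symbol, and each had 1 probe set whose platform annotation gave that single symbol, so 5 of the 19938 genes measured were followed. Every sample was the bud of a CD-1 embryo at 10.5 days post coitum (Theiler stage 18, sex unknown) that carried the transgene Tg(Hoxb7-EGFP)33Cos, whose Hoxb7 regulatory DNA makes the nephric duct and bud fluoresce green. The 3 arrays form 1 group, each with the trypsin-dissociated, fluorescence-sorted cells of 1 bud that was not pooled, and there is no second condition and no unlabelled control. Whether the buds came from different embryos is not given, so the 3 arrays may not be independent. With 1 bud per array, the spread between arrays may be partly technical and cannot be split from differences between buds.

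RET does not bind its ligands alone. A GFR-alpha protein, tethered to the membrane by a lipid anchor, captures a ligand of the GDNF family, and the complex then joins and activates RET, which signals through adaptor proteins to the RAS-MAPK and PI3K cascades. GFR-alpha 1 is the main partner of GDNF, GFR-alpha 2 of neurturin, GFR-alpha 3 of artemin and GFR-alpha 4 of persephin. In the kidney, GDNF is made by the metanephric mesenchyme, and bud cells that carry RET and GFR-alpha 1 respond to it by growing out of the duct and branching. The co-receptors 2 to 4 are best known from neurons.

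RefSeq promoter windows, each of 300 bases (250 before and 50 after a start of transcription, build GRCm38.p6), are shown for a pair of co-receptors, one far above background in these cells and one not. Gfra1 had 1 window, at chr19:58455349-58455648, and Gfra4 had windows at chr2:131043039-131043338 and chr2:131042633-131042932, all on the minus strand and printed 5′ to 3′ of the gene. Capitals mark matches, on either strand, to GATA (the core bound by GATA factors), CCGGAA (a core bound by ETS factors) or TATAAA.

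Gfra1: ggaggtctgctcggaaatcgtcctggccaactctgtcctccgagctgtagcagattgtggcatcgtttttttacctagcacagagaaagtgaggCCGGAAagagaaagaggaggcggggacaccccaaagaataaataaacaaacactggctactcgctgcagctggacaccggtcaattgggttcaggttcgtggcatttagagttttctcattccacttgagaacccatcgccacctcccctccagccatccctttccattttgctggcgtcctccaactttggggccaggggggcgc

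Gfra4, first window: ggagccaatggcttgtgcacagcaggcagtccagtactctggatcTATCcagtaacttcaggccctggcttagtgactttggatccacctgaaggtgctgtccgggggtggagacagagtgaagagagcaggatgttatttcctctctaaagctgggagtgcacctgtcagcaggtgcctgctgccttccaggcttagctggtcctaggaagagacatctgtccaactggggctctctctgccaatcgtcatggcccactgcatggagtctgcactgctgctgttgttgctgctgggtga

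Gfra4, second window: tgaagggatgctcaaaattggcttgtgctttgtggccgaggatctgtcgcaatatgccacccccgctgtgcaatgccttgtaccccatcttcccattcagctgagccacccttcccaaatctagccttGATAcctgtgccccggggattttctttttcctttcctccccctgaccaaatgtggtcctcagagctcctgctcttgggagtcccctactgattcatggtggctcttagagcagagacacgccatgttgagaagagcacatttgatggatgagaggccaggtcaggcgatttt

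The Gfra1 window held 1 CCGGAA match, which 14.9% of all 32851 promoter windows of this length also hold, and no GATA or TATAAA match. Each Gfra4 window held 1 GATA match (in the first window read on the other strand, as TATC), which 57.9% of all windows hold, and neither held CCGGAA or TATAAA, the latter found in 13.6% of all windows. The Gfra1 window contained 12 CG dinucleotides, more than 60.4% of all windows, and the Gfra4 windows 2 and 6, against a median of 7. These are letter matches and describe the windows only.

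Signals are given on the log2 scale of the deposited table, and a gene was compared with the background of its own array. The background level was the 95th percentile of 1035 probe sets for olfactory receptors, genes taken as not used in this tissue, and was 5.40, 5.45 and 5.41 log2 on arrays 1, 2 and 3. A gene was called above background when limma's one-sided test of its mean distance from that level gave an adjusted p (Benjamini-Hochberg over all genes) under 0.05. By this rule 3 of the 5 members were above background, Ret, Gfra1 and Gfra3, while 53% of all genes were, so the count itself is near the share over all genes. The members differed in how far from the level they lay.

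Ret had signals of 8.69, 8.35 and 8.18 log2 on arrays 1, 2 and 3, a mean of 8.41 ± 0.26 log2 (SD, n = 3). Every array lay far above its background level, by 3.29, 2.90 and 2.78 log2. The mean distance was 2.99 ± 0.11 log2 (limma's moderated SE), a signal 7.94 times the background level (limma, adjusted p = 4.3e-05). A moderated SE is drawn toward a prior fitted over all genes, here an SD of 0.05 log2, below that of Ret. No olfactory receptor probe set exceeded Ret on arrays 1 and 3, and 1 of 1035 did on array 2. Among all genes Ret stood at percentile 92.2, 90.7 and 89.3 on the 3 arrays, and its mean was rank 1821 of 19938.

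Gfra1, the co-receptor for GDNF, had signals of 8.58, 8.22 and 7.85 log2, a mean of 8.22 ± 0.37 log2 (SD, n = 3). It was also above background on every array, by 3.18, 2.77 and 2.45 log2. The mean distance was 2.80 ± 0.16 log2 (limma's moderated SE, again drawn toward the prior), or 6.96 times the background level (limma, adjusted p = 0.000143). On array 1 it exceeded every olfactory receptor probe set, and on arrays 2 and 3 it was exceeded by 1 of them. Its percentile among all genes was 91.6, 89.7 and 86.7 on arrays 1, 2 and 3, and its mean had rank 2067, next below that of Pax2.

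Gfra3, the artemin co-receptor, had a signal of 5.65 log2, and the table gives the same value on all 3 arrays. It lay just above the background level, by 0.25, 0.20 and 0.24 log2. The mean distance of 0.23 log2, or 1.17 times the level, passed the test (limma, adjusted p = 0.000955), but for a value without measured spread this p rests on the 3 background levels and limma's prior. Between 30 and 35 of the 1035 olfactory receptor probe sets (2.9% to 3.38%) had a higher signal. Gfra3 stood at percentile 50.7 of all genes, in the middle of the table. The exact value of Gfra3 was held on all 3 arrays by 14 other probe sets, 12 of them with a single gene symbol. The genes of these 12 are Aak1, Ankrd52, Col10a1, Fbxl6, Il31, Notch4, Sardh, Sftpb, Usp43, Wdr25, Zfp324 and Zfp94. Their naming was decided after seeing the data. The call of Gfra3 was lost at the 99th percentile of olfactory receptors (distance −0.41 log2, limma, adjusted p = 1), against keratin-associated protein and beta-defensin genes (−1.22 log2, adjusted p = 1) and without array 1 or array 3 (limma, adjusted p = 0.0901 and 0.0813), where the fit used 1 SD pooled over all genes.

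Gfra4, the persephin co-receptor, was at 5.00 log2, again identical on all 3 arrays. It lay below the level everywhere, by a mean of −0.42 log2 (limma, adjusted p = 1), and between 108 and 118 olfactory receptor probe sets (10.4% to 11.4%) were higher. Its percentile among all genes was 33.0. Gfra2, the neurturin co-receptor, had signals of 4.51, 4.49 and 4.59 log2, a mean of 4.53 ± 0.05 log2 (SD, n = 3), the lowest of the members. Its distance from the level was −0.89 log2 (limma, adjusted p = 1), 213 to 241 olfactory receptor probe sets (20.6% to 23.3%) lay above it, and its percentile was 22.6. For both genes a signal in this range is not told apart from that of genes without use in the tissue, which does not show that their RNA was absent.

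**Figure D1:**
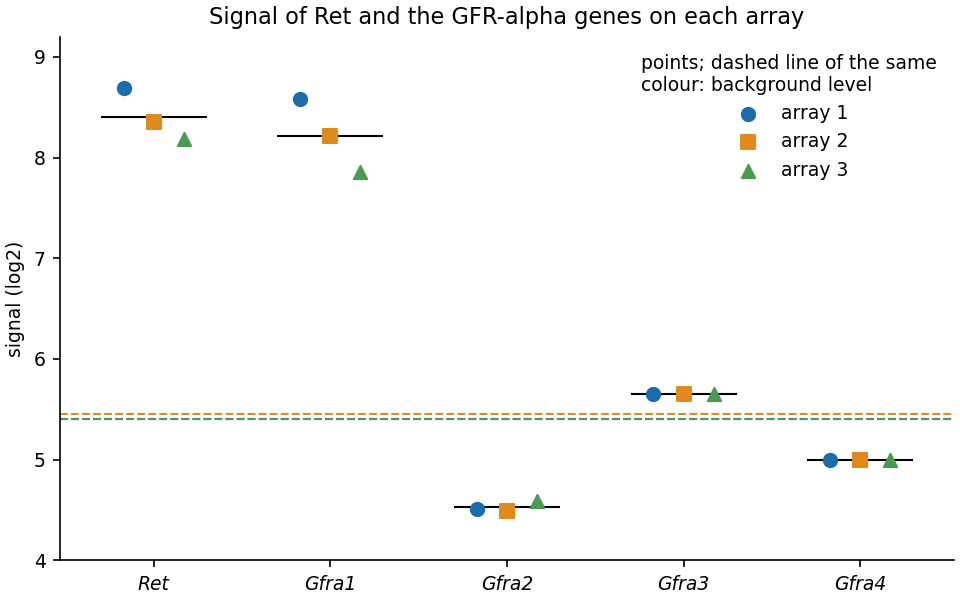
Signal in log2 (vertical axis) of the 5 members on arrays 1, 2 and 3 (points), with each member's mean (black bar) and each array's background level (dashed lines at 5.40 to 5.45). Ret and Gfra1 lie between 7.85 and 8.69, Gfra3 just above the dashed lines, and Gfra4 and Gfra2 below them.

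In order of signal the members were Ret, Gfra1, Gfra3, Gfra4 and Gfra2. The ranges of Ret (8.18 to 8.69 log2) and Gfra1 (7.85 to 8.58 log2) overlapped. On each array Ret was the higher of these, by 0.10, 0.14 and 0.33 log2 on arrays 1, 2 and 3, less than the range of either gene between arrays. The values of the other neighbours did not overlap. Each gene is read by other probes, whose affinities differ, so the order sorts signals and is no order of RNA amounts. Among the 10567 genes above background alone, Ret stood at percentile 82.8 and Gfra1 at 80.4, while Gfra3 stood at 8.3.

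**Figure D2:**
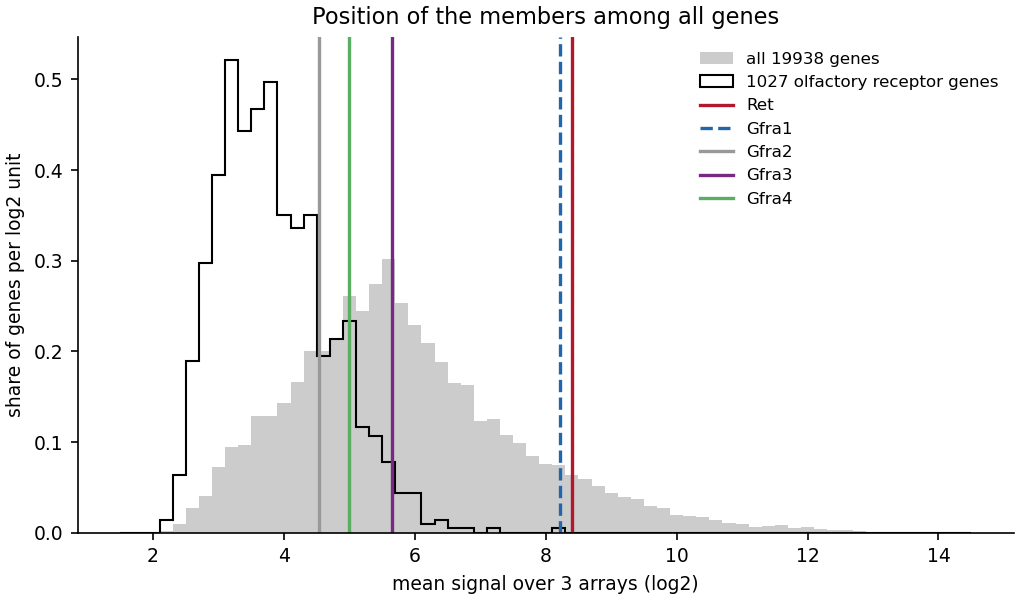
Distribution of mean signal in log2 (horizontal axis) for all 19938 genes (grey) and for olfactory receptor genes (black outline), with the share of genes per log2 unit on the vertical axis and a vertical line for each member. The lines of Ret and Gfra1 fall in the upper tail beyond nearly all olfactory receptors, that of Gfra3 near the middle of all genes, and those of Gfra4 and Gfra2 within the bulk of the olfactory receptors.

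The ligands of the family were at or near background. Of 4 measured (Gdf15 is not analysed here), Pspn and Nrtn were above it and Gdnf and Artn were not. Pspn, which encodes persephin, was at 5.81 log2, identical on all 3 arrays (limma, adjusted p = 0.000164). Nrtn, which encodes neurturin, was at 5.60, 5.78 and 5.60 log2 (adjusted p = 0.00408). Both lay within 0.40 log2 of the level, and neither was called at the 99th percentile of olfactory receptors. Gdnf, the ligand of GFR-alpha 1 made by the mesenchyme around the bud, was at 5.31 log2 on each array, and Artn, for artemin, at 5.20, 5.33 and 5.33 log2 (limma, adjusted p = 1 for each). The 2 of 4 ligands called (50%) were near the 53% of all genes. At this level, calls differed within each pair of ligand and co-receptor. Gfra1 was called where Gdnf was not, Pspn where Gfra4 was not, Nrtn where Gfra2 was not, and Gfra3 where Artn was not. The contrast depended on the level. At the 90th percentile and against vomeronasal receptors all 4 ligands were called, with 63.7% and 65% of all genes. Gdnf was then called with Gfra1, and Artn with Gfra3. Against keratin-associated protein and beta-defensin genes no ligand was called.

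Proteins related to or binding the co-receptors gave a wider range. Gas1, a relative of the GFR-alpha proteins, had signals of 6.36, 6.36 and 6.60 log2 and was above background (distance 1.02 log2, limma, adjusted p = 0.000227). Gfral, the receptor for the distant ligand GDF15, was at 3.85 log2 on all 3 arrays and was not (adjusted p = 1). Ncam1, a cell adhesion molecule that can serve GDNF as a receptor besides RET, was at 6.05 log2, and Sorl1, a sorting receptor for GFR-alpha 1, at 6.19 log2, each identical on all 3 arrays. Sdc3, a heparan sulfate proteoglycan that binds GDNF, was at 6.30 ± 0.03 log2 (SD, n = 3), and Fyn, a kinase that acts with NCAM, at 7.24, 6.57 and 7.24 log2. All 4 of these binding partners were above background (limma, adjusted p of at most 0.00134), against 53% of all genes. At the 99th percentile 3 were called, against 35.3% of all genes.

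Of the adaptors that couple RET to its cascades, 19 of 24 measured were above background, against 53% of all genes. Their median distance was 0.87 log2 against 0.22 over all genes. Grb2, the adaptor that recruits the RAS activator SOS, was at 7.38, 7.38 and 7.46 log2 (limma, adjusted p = 4.45e-06). Shc1, which links activated receptors to GRB2, was at 7.09, 6.33 and 6.33 log2 (adjusted p = 0.00527). The docking protein gene Dok4 was at 5.50 log2 and Shc3 at 5.60, each identical on all 3 arrays and each within 0.20 log2 of the level (adjusted p = 0.0256 and 0.00209). The 5 adaptors not above background included 4 more of the docking proteins, Dok1 at 5.28, Dok2 at 5.28, Dok5 at 4.91 and Dok6 at 4.34 log2, besides Irs1 at 5.31. Dok4 was the 1 gene called of the 5 Dok genes measured in this list, and its call was lost without array 1 or array 3 (adjusted p = 0.535 and 0.513), as was that of Shc3 (0.181 and 0.168).

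All 12 measured genes of the RAS-MAPK and PI3K cascades were above background, against 53% of all genes, at a median distance of 1.62 log2. Without array 1, without array 3 or with a floor on the SD 11 of 12 were, where 48.5%, 48.8% and 49.2% of all genes were. The catalytic PI3K subunit Pik3ca was at 7.39 log2 and the kinase Braf at 7.02, both identical on all 3 arrays, the kinase Akt1 at 6.50 ± 0.06 and the small GTPase Nras at 10.48 ± 0.13 log2 (SD, n = 3; limma, adjusted p of at most 5.27e-05). Of the genes that attenuate RET or its cascades, 14 of 15 were above background, at a median of 1.88 log2. In the same settings 13 of 15 were. Spry1, the inhibitor that restrains RET signalling in the duct, was at 6.31 log2, and the ubiquitin ligases Cbl and Cblb at 7.43 and 8.01, each identical on all 3 arrays. The MAP kinase phosphatase Dusp6 was at 7.83, 7.28 and 6.78 log2 (limma, adjusted p = 0.00169), and Spry4, at 5.34 log2, was the gene not called.

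Every measured gene of the remaining pathway lists was above background, against 53% of all genes. These were the 10 transcription regulators linked to Ret expression in the duct, at a median distance of 1.89 log2, and 7 genes that depend on RET signalling at the bud tip, at 2.18 log2. Among the regulators, Gata3 was at 9.27, 9.06 and 9.05 log2, Pax2 at 8.58, 8.15 and 7.92, Pax8 at 6.49, 6.47 and 5.97, and Lhx1 at 7.76, 6.97 and 6.79. Among the RET-dependent genes, the ETS factor Etv5 was at 8.39, 8.08 and 8.08 log2, its relative Etv4 at 6.76, 6.37 and 5.54, the chemokine receptor Cxcr4 at 9.42, 8.86 and 8.64, and the tip ligand Wnt11 at 6.05, identical on all 3 arrays. Array 1 held the highest signal of each of the 7 genes named here that varied. At the 99th percentile 8 of the 10 regulators and 5 of the 7 RET-dependent genes were called. Without array 2 the calls of Pax8 and Etv4 were lost (limma, adjusted p = 0.0506 and 0.217).

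Over all pathway lists, with each gene counted once and the members left out, 69 of 78 measured genes (88.5%) were above background, against 53% of all genes. The count fell to 54 at the 99th percentile, where 35.3% of all genes were called, and to 29 against keratin-associated protein and beta-defensin genes, where 21.1% were.

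**Figure D3:**
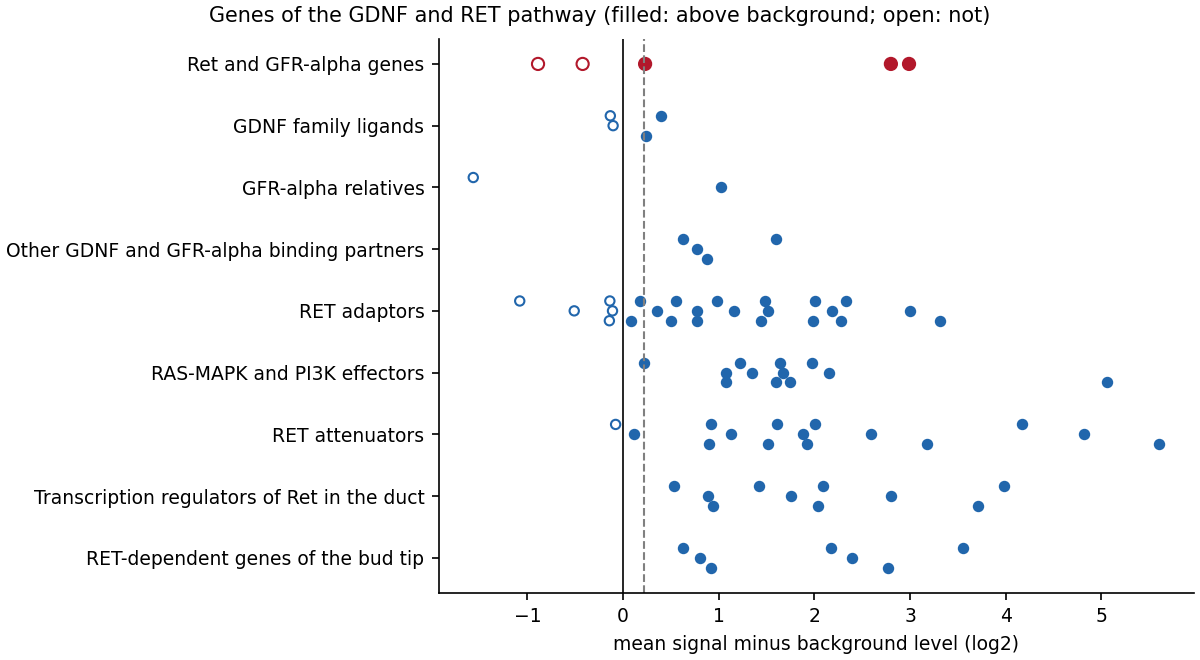
Mean signal minus background level in log2 (horizontal axis) for each measured gene of the GDNF and RET pathway, by list, with the members in red on the top row, filled points above background and open points not, and a dashed line at the median of all genes (0.22). The ligands lie within 0.40 of 0, while the RET-dependent genes lie from 0.63 to 3.56.

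Between buds, Ret and Gfra1 had their highest signal on array 1 and their lowest on array 3. The difference between these arrays was 0.51 log2 for Ret, a ratio of 1.42, and 0.73 log2 for Gfra1, a ratio of 1.66, while the median difference over all genes was 0. Each array is 1 bud, so this difference has no replicate and no test. After quantile normalization it was 0.46 and 0.68 log2. Without array 1 the range fell to 0.17 log2 for Ret and 0.37 for Gfra1, and without array 3 to 0.33 and 0.36. Of all genes above background, 11.6% had a larger range over the arrays than Ret and 6.02% a larger one than Gfra1, and of the 6118 that are not identical on all arrays 20.1% and 10.4%. Gfra2 varied by 0.11 log2, and for Gfra3 and Gfra4 the table holds no spread.

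Of the regulators of Ret, 8 of 10 were higher on array 1 than on array 3 and none lower, by a median of 0.28 log2, and of the RET-dependent genes 4 of 7 were higher and none lower. Bud markers went the same way, 6 of 9 higher and none lower, by a median of 0.22 log2. They share Gata3 and Pax2 with the regulators. Of the RET attenuators 6 of 15 were higher and none lower, and of the adaptors 8 of 24 higher and 3 lower. For the RAS-MAPK and PI3K genes 5 of 12 were higher and 1 lower. Among all genes above background 28% were higher and 19.9% lower. The rest were equal, genes identical on all arrays among them. The full order seen for Ret and Gfra1 was array 1 over array 2 over array 3. It was shared by 4 of the 10 regulators, 3 of the 7 RET-dependent genes and 3 of the 9 bud markers. The attenuators shared it in 2 of 15, the RAS-MAPK and PI3K genes in 2 of 12, and the adaptors in none of 24. Among all genes above background 6.48% did, a share that counts genes identical on all arrays, which can show no order. The lists hold such genes in differing parts, so these shares are not like for like.

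Markers of other cells also differed between arrays. Ret and Gfra1 are known from enteric neural crest and neurons too. Of 8 measured markers of these cells 5 (62.5%) were above background (Sox10, Ednrb, Th, Isl1 and Hand2), against 53% of all genes. Tubb3, Foxd3 and Elavl4 were not called. The count depended on the level. At the 90th percentile and against vomeronasal receptors 7 of 8 were called, where 63.7% and 65% of all genes were. At the 99th percentile 2 were and against keratin-associated protein and beta-defensin genes 1 was, where 35.3% and 21.1% of all genes were. Without array 1 or array 3, in fits with a pooled SD, Tubb3 was called and Th and Hand2 were not (limma, adjusted p of 0.0888 to 0.183 for these). The summed linear signal of the 8 was 732, 531 and 586 on arrays 1, 2 and 3, and without Tubb3 499.8, 470.5 and 517.9. Of the 8, 1 was higher on array 1 than on array 3, 3 were lower and 4 equal. The neuronal tubulin gene Tubb3 was at 7.86 log2 on array 1 against 5.93 and 6.09 on arrays 2 and 3 (limma, adjusted p = 0.0608), Sox10 at 6.29 on all 3, and Ednrb at 7.75, 7.52 and 7.84. The 9 bud markers, all above background, summed to 7130, 6020 and 5830, highest on array 1. Of 9 endothelial markers 6 (66.7%) were above background (not Kdr, Esam and Sox17), against 53% of all genes. The endothelial sums were 1150, 528 and 1730, lowest on array 2 and highest on array 3. The number called was 9, 8 and 7 of 9 without array 1, 2 and 3, where 48.5%, 52.8% and 48.8% of all genes were called. All 9 endothelial markers were called at the 90th percentile and against vomeronasal receptors. At the 99th percentile 2 were, and against keratin-associated protein and beta-defensin genes none was. For the 3 embryonic globin genes (Hba-x called, Hbb-y and Hbb-bh1 not) the sums were 797, 125 and 574, and Hbb-y was called when array 1, 2 or 3 was left out. The part of these cells in the differences of Ret and Gfra1 between arrays was not tested, and more cells of a type cannot be told apart from more RNA per cell.

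**Figure D4:**
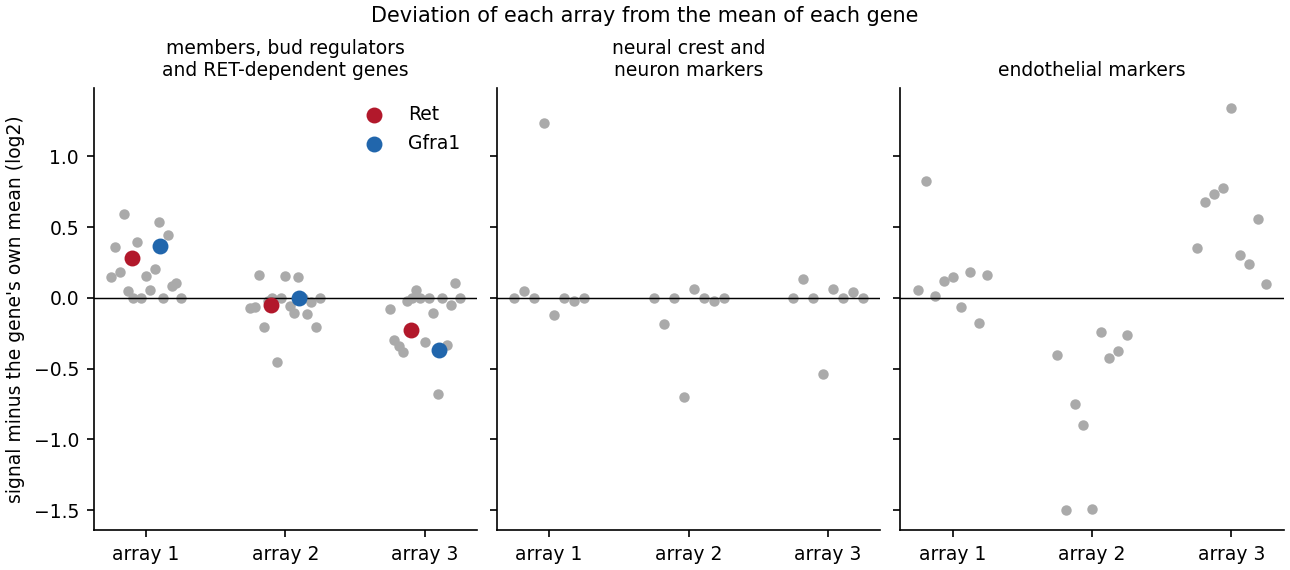
Signal minus the gene's own mean in log2 (vertical axis) on arrays 1, 2 and 3, for Ret and Gfra1 (coloured) with the Ret regulators and RET-dependent genes (grey, left), neural crest and neuron markers (middle) and endothelial markers (right), 1 point per gene and array. Ret and Gfra1 lie above 0 on array 1 and below it on array 3, and endothelial markers lie lowest on array 2.

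The samples are labelled as ureteric bud, and all 9 bud markers were above background. Calb1, Hoxb7, Wnt9b and Cdh1 were at 11.47, 7.01, 6.16 and 7.62 log2. Single markers of other cells had signals as high as Hoxb7 and Wnt9b: endothelial Emcn at 8.22 and Cdh5 at 7.40, and mesenchymal Cited1 at 7.02 log2. By list, the median distance from the level was 3.37 log2 for bud, 0.88 for endothelial and −0.10 for mesenchymal markers. Of 9 markers of the metanephric mesenchyme, a tissue that also carries Gfra1, 3 (33.3%) were above background (Cited1, Uncx and Wt1), against 53% of all genes. Six2, Eya1 and Osr1, at 5.20, 5.36 and 4.50 log2, were not. The summed linear signal of the 9 was between 405 and 430 on every array. Uncx and Wt1 lost their calls without array 1 (limma, adjusted p = 0.104 and 0.181) or array 3 (adjusted p = 0.0944 and 0.168). Only 1 of 9 was called without array 1, without array 3 or with a floor on the SD, where 48.5%, 48.8% and 49.2% of all genes were. The count also depended on the level. At the 90th percentile and against vomeronasal receptors 6 of 9 were called, near the 63.7% and 65% of all genes. At the 99th percentile 1 was, where 35.3% of all genes were. Against keratin-associated protein and beta-defensin genes none was, where 21.1% of all genes were. None of the 4 stromal markers (Foxd1, Tcf21, Pdgfra and Pdgfrb) or the 3 leukocyte markers (Ptprc, Csf1r and Adgre1) was called (limma, adjusted p = 1 for each).

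The genes whose deviations over the 3 arrays were most like those of Ret were Slc16a1, Ttll12 and Praf2, with a root mean square difference of 0.01 log2. For Gfra1 they were Dlg4, Tmtc2 and Cep350, at 0.01 to 0.02 log2. With 3 arrays such likeness is easily met: 470 of 4415 candidate genes lay within 0.1 log2 of Ret and 111 of Gfra1. The difference between Ret and Gfra1 themselves was 0.10 log2, and 10.6% of the other candidates were nearer to Ret than Gfra1 was, and 2.49% nearer to Gfra1 than Ret was.

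Across the 14 settings of the background comparison, the main one included, Ret and Gfra1 were above background in every one, at distances from 1.54 to 3.54 and from 1.35 to 3.35 log2. Gfra2 was above it in none, from −2.34 to −0.34 log2. Gfra4 was called in none of the 13 settings in which it was tested, and Gfra3 in 8 of 13.

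**Figure D5:**
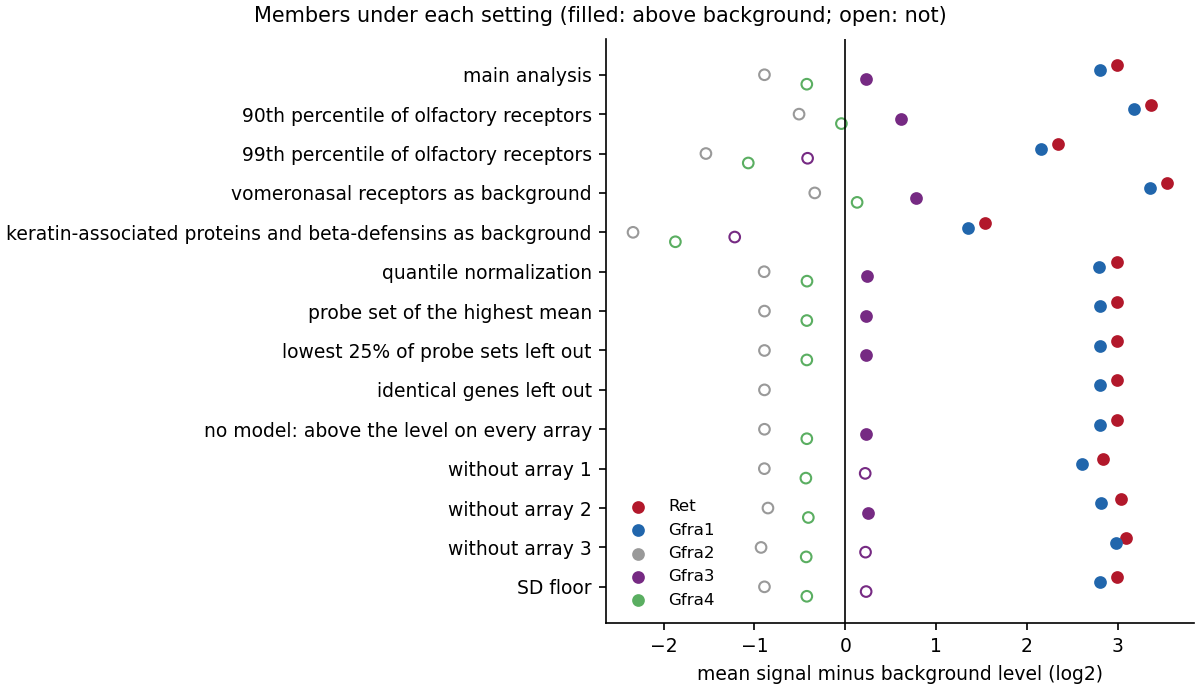
Mean signal minus background level in log2 (horizontal axis) of each member under each setting (rows), filled where above background and open where not. Ret and Gfra1 stay at 1.35 or more, Gfra2 stays below 0, and Gfra3 and Gfra4 cross 0 in some rows.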

How the data were processed

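Sorted cells of 3 ureteric buds (1 group) were measured on Affymetrix arrays after 1 round of RNA amplification, per the labels' protocols. The authors deposited 1 value per probe set and array, used here as log2; the base was inferred from the range of the values. Per the submitters' processing notes Affymetrix Expression Console produced the summaries; the sources used here do not give its background correction or normalization, or a genome build. Column medians were 5.47, 5.50 and 5.48 log2. Values of 14486 of 35557 probe sets (40.7%) were identical on all 3 arrays within 1e-06 log2.

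Genes were named by the platform annotation; probe sets with 1 symbol (21789) were averaged per gene. limma 3.58.1 (R 4.3.3) was fitted on all 19938 genes and checked on data made with known shifts. The made data had noise of the same SD in every gene. The check therefore does not cover genes identical on all arrays, 51.7% of the genes measured. With 3 arrays, their number limits precision. Alternatives changed the background, normalization, probe set choice, filter, model and arrays; an SD floor of 0.12 log2 was added after seeing the data. The members and gene lists were chosen with earlier results of these data known. Named genes were the members, all ligands, relatives and binding partners, the first 4 measured genes of other lists, all on a side of the call with 5 or fewer, and the 3 genes most like a called member among genes above background that ranged over 0.1 log2.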

Additional observations from a re-analysis of the deposited data

How the results depend on the processing

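The number of members above background was 3, or 2 (without Gfra3) in 6 of 13 alternatives. Among these 6 is the setting with identical genes left out, in which Gfra3 was not tested. Gfra3 moved to −0.41 log2 at the 99th percentile and to −1.22 against keratin-associated protein and beta-defensin genes, and Gfra4 to 0.13 with vomeronasal receptors as background (limma, adjusted p = 0.197). With the SD floor Gfra3 had an adjusted p of 0.057. Of 78 pathway genes 69 were called, against 53% of all genes. Against keratin-associated protein and beta-defensin genes 29 were, where 21.1% of all genes were. With identical genes left out, 40 of the 43 left were called, where 63.1% of all genes tested were. Without 1 array 65 to 67 were called, where 48.5% to 52.8% of all genes were.

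Ranked among all probe sets, Ret, Gfra2, Gfra3 and Gfra4 stood at percentile 88.8, 29.4, 54.2 and 38.9, and among genes above background Ret, Gfra1 and Gfra3 at 82.8, 80.4 and 8.3. Taking each gene's brightest probe set, Gfra3 and Gfra4 stood at 50.2 and 32.6. Without any 1 array Gfra3 stood at 50.6. The range between arrays of Gfra3 and Gfra4 became 0.031 and 0.051 log2 after quantile normalization and 0.054 for both relative to the background level. Leaving out 1 array gave ranges of 0.172 to 0.505 log2 for Ret, 0.364 to 0.731 for Gfra1 and 0.025 to 0.105 for Gfra2.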

Other observations

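Values identical on all 3 arrays were rarely unique to a probe set: 12199 of the 14486 identical probe sets (84.2%) shared their exact value with another one, and only 3554 distinct values occurred among them. Ret, Gfra1, Gfra2 and Gfra4 shared their 3 values with no other probe set, and Gfra3 shared its value with 14. Which step of the authors' summary produced this was not tested.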
